A study of Mus musculus with 12 samples.

Results

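The RNAs described here are 9 genes of the mouse mitochondrial chromosome: the rRNAs mt-Rnr1 and mt-Rnr2, and the mRNAs mt-Nd1, mt-Nd2, mt-Co1, mt-Nd4, mt-Nd5, mt-Nd6 and mt-Cytb. They were taken by symbol from a table of read counts on 47937 genes, of which 22191 had at least 1 read, and they are 9 of the 37 genes that this table holds for the mitochondrial chromosome. All 9 passed the filter on low counts that left 11760 genes for testing. The libraries were made from C57BL/6 bone marrow-derived macrophages, grown for 7 days with CSF-1 (20 ng/ml), which every group received. Cells were left resting (M0) or given IFNγ at 50 ng/ml together with LPS at 20 ng/ml for 18 h (IFNγ + LPS), and both states were also sampled after 18 h with 50 µM of T863, an inhibitor of DGAT1 (M0 + DGAT1i and IFNγ + LPS + DGAT1i), with 3 libraries in each of the 4 groups. DGAT1 makes triglycerides from diglycerides, and the study asked what its inhibition does to inflammatory macrophages. The labels give no time for M0, and for 2 of the 3 libraries of M0 + DGAT1i the deposited description gives the inhibitor another number, although the sample source names T863. The deposited labels give replicates only a number, so that p-values here measure the spread between these libraries, which may be technical.

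The mitochondrial genome is a small circle that codes for the rRNAs of the mitochondrial ribosome, for tRNAs, and for core subunits of the respiratory chain complexes I, III and IV and of ATP synthase. Both strands are transcribed into long precursors, which are cut mostly at the tRNAs that lie between the other genes, so that levels of neighbouring RNAs can differ by processing and stability as well as by transcription. Macrophages stimulated with IFNγ and LPS are known for a shift from respiration to glycolysis. In counts from bulk RNA, fewer mitochondria per cell and less RNA per mitochondrion cannot be told apart, nor can fewer cells of a type and less RNA per cell.

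Of the 9 genes, 8 are transcribed in the direction of the heavy-strand promoters and 1, mt-Nd6, in the other. On GRCm38, with the annotation of GENCODE release M21, mt-Rnr1 lies at chrM:70-1024 and mt-Rnr2 at chrM:1094-2675, both on the plus strand and separated by the tRNA gene mt-Tv. On the same strand follow mt-Nd1 (chrM:2751-3707), mt-Nd2 (chrM:3914-4951), mt-Co1 (chrM:5328-6872), mt-Nd4 (chrM:10167-11544), mt-Nd5 (chrM:11742-13565) and mt-Cytb (chrM:14145-15288). The gene mt-Nd6 (chrM:13552-14070) is on the minus strand and shares its last 14 bases with the last 14 of mt-Nd5. None of these genes has an intron. The ends of 4 of the mRNAs are shown because these RNAs are counted in libraries for which the study names a poly(A)-based kit. The bases of the final codon are in capitals, read from the transcripts of GENCODE release M21. The genes mt-Nd4 and mt-Cytb end in a single T of an unfinished stop codon, which is completed only when the A tail is added, whereas mt-Co1 ends in a full stop codon. As annotated, mt-Nd1 ends in a full stop codon too, but its last 2 bases also belong to the tRNA gene mt-Ti on the same strand.
mt-Co1: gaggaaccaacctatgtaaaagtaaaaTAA
mt-Nd1: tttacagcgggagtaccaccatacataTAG
mt-Nd4: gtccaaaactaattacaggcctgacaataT
mt-Cytb: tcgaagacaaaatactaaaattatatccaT

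The rRNAs have no such coding end, and their most A-rich stretches of 30 bases are shown because these RNAs held most of the reads. Both stretches hold 20 A, with the longest run of A in capitals, and lie at bases 646 to 675 of mt-Rnr1 and 386 to 415 of mt-Rnr2. Over the whole gene, A made up 37.8% of mt-Rnr1, 38.2% of mt-Rnr2, 29.5% of mt-Co1 and 31.7% of mt-Cytb.
mt-Rnr1: taaagtaagcaaaagaatcaaacatAAAAA
mt-Rnr2: aaacttgctAAAAAAAcaacaaaatcaaaa

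The overlapping ends of mt-Nd5 and mt-Nd6 are shown because the strand of the counting is not settled. The labels name a NEBNext low-input kit, and the study's methods name a TruSeq stranded mRNA kit. The shared bases are in capitals, each gene read 5′ to 3′ on its own strand. Without strand, reads of mt-Nd6 and reads of antisense RNA from the heavy-strand direction cannot be told apart, and this holds for every value of mt-Nd6 below.
mt-Nd5: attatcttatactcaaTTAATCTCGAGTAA
mt-Nd6: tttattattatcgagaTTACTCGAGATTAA

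The other 6 mRNAs of the mitochondrial genome had almost no reads, which limits what can be said of the mitochondrial mRNAs to the 7 described here. Summed over 12 libraries, mt-Co2 (a subunit of complex IV) had 33 reads, mt-Co3 29, mt-Nd3 79, mt-Nd4l 6, mt-Atp6 9 and mt-Atp8 0. Of the 50-base windows of these genes, 0% of mt-Co2, 0.136% of mt-Co3, 0.475% of mt-Atp6, 1.21% of mt-Nd4l and 2.01% of mt-Nd3 occurred in no other annotated transcript, whereas for mt-Atp8 it was 100%. They lie in a stretch of the mitochondrial genome (chrM:6390-11042, 4653 bases) of which chromosome 1 carries a copy (chr1:24611535-24616197, 4663 bases). There, 7 annotated pseudogenes match mt-Co1, mt-Co2, mt-Atp6, mt-Co3, mt-Nd3, mt-Nd4l and mt-Nd4 with an identity between 99.7% and 100%. No annotated copy of mt-Atp8 was found, but the gap of 233 bases between the copies of mt-Co2 and mt-Atp6, where it would lie, is as long as on the mitochondrial genome. The copies themselves had between 0 and 11 reads per library. How reads with several matches were counted is not stated in those sources, and its part in these low counts was not tested.

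Of the 9 RNAs, mt-Co1 and mt-Nd4 reach into the copied stretch. The copy Gm29216 holds bases 1063 to 1545 of mt-Co1 with 1 mismatch (A1066T, the base of mt-Co1, its position from the first base of the gene, then the base of the copy), and the copy Gm28439 holds bases 1 to 876 of mt-Nd4 with none. The edges are shown, 30 bases on either side, with the copied side in capitals. Of the 50-base windows, 48.9% of mt-Co1 and 37.8% of mt-Nd4 occurred in no other annotated transcript, against 91.8% to 100% of the other 7 genes, and comparisons of levels between genes are subject to this. For mt-Co1, another copy on chromosome 2, Gm13340, matches the whole gene with 97.6% identity and had 20 to 65 reads per library.
mt-Co1: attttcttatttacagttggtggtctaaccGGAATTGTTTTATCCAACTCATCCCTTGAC
mt-Nd4: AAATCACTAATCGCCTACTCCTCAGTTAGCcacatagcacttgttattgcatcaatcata

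**Figure D1:**
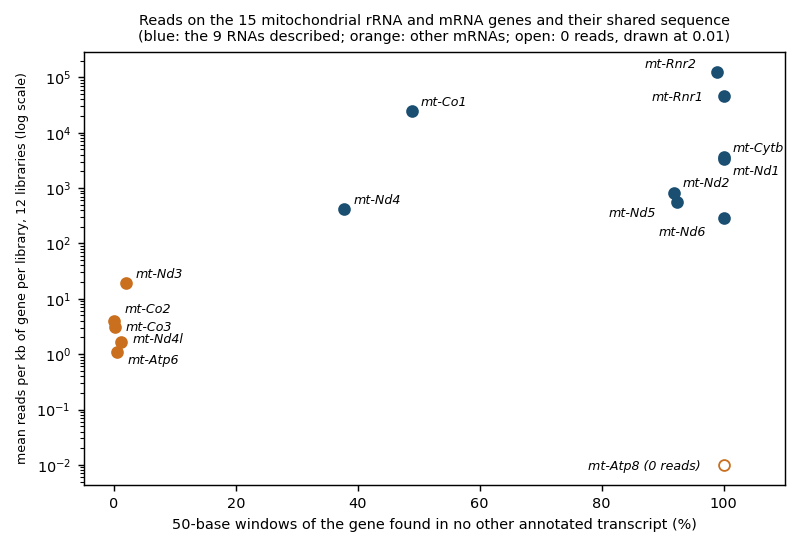
Mean reads per kb of gene and library over the 12 libraries (y axis, log scale) against the share of 50-base windows found in no other annotated transcript (x axis, %) for the 15 rRNA and mRNA genes of the mitochondrial chromosome. The 9 described RNAs (blue) have 287 reads per kb or more, and the 5 mRNAs with at most 2.01% unshared windows (orange, left) have 18.9 or fewer, while mt-Atp8 (open symbol, drawn at 0.01) has 0 reads.

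Libraries held between 4996014 and 6621671 reads on genes, and a single RNA of the set had between 77 (mt-Nd6) and 259262 (mt-Rnr2) reads in a library. Library sizes were scaled by the trimmed mean of M values (TMM), whose mean factors were 1.19 (M0), 1.14 (M0 + DGAT1i), 0.86 (IFNγ + LPS) and 0.855 (IFNγ + LPS + DGAT1i). Shares of all reads and TMM-scaled CPM, reads per library rescaled to a common total, are therefore given side by side, since shares shift with highly expressed genes and TMM rests on the middle of all genes. In the library of IFNγ + LPS + DGAT1i replicate 2, Gm26917 and Gm42418, which are annotated as long non-coding RNAs and collect reads of nuclear rRNA, took 0.907% and 0.123% of the reads, against 0.476% and 0.0554% in replicate 1 and 0.58% and 0.0884% in replicate 3. This library also had the highest mt-Rnr1, mt-Rnr2, mt-Nd2, mt-Nd4 and mt-Nd5 of its group, and values without it are given where leaving it out changes a call of the 9 RNAs. All 10 macrophage markers had reads in every group, summing to 15945 to 17425 CPM in M0, 7595 to 8110 in IFNγ + LPS, 18930 to 20931 in M0 + DGAT1i and 7131 to 7898 in IFNγ + LPS + DGAT1i (CPM before TMM scaling). In M0 most of the sum was Lyz2, which took 1.145% of all reads there and 0.254% in IFNγ + LPS, and between these groups 4 of the 10 markers were called higher and 6 lower on the TMM scale. Marker sums of other cell types were at most 24.1 CPM, and 0 reads fell on the 5 erythroid markers. The 8 neutrophil markers, of which Ly6g and Retnlg had 0 reads, summed to 18.3 to 24.1 CPM in M0, 1.09 to 3.41 in IFNγ + LPS, 13.3 to 17.1 in M0 + DGAT1i and 10.3 to 15.8 in IFNγ + LPS + DGAT1i, and their part in the results was not tested. The 6 dendritic cell markers summed to 10.7 to 15.1 CPM in IFNγ + LPS and to at most 3.8 in the other groups, and the lymphocyte and the stromal and endothelial markers to at most 0.488 and 4.35.

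Together the 9 RNAs made up between 3.88% and 6.19% of all reads. In M0 the sum was 4.77% ± 0.0797 (SD, n = 3), with 4.72%, 4.72% and 4.86% in the 3 libraries. In IFNγ + LPS it was 4.02% ± 0.169, with 3.98%, 4.21% and 3.88%, and every library was below every M0 library. With DGAT1i the sum was 5.79% ± 0.348 in M0 (5.62%, 6.19% and 5.56%) and 4.85% ± 0.417 in IFNγ + LPS (4.71%, 5.32% and 4.51%), in each state above all libraries without the inhibitor. Without replicate 2, IFNγ + LPS + DGAT1i was at 4.61% ± 0.141 (n = 2), again above IFNγ + LPS. Resting and stimulated groups change order with the scaling: as a percentage of the TMM effective library size, the sum was 4.01 ± 0.068 in M0 and 4.68 ± 0.262 in IFNγ + LPS, so that the stimulated libraries were above the resting ones, whereas DGAT1i libraries stayed above their counterparts in both states (5.06 ± 0.341 and 5.67 ± 0.515). No test was run on these sums.

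**Figure D2:**
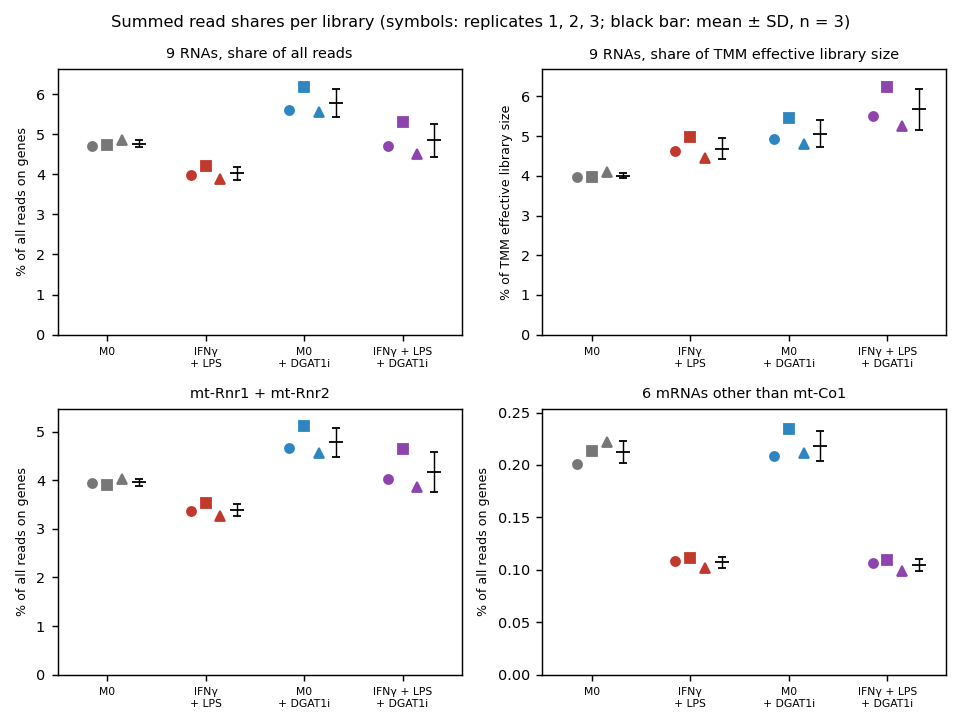
Read shares per library in 4 groups: the 9 RNAs as % of all reads on genes, the same as % of the TMM effective library size, the rRNAs alone, and the 6 mRNAs other than mt-Co1 as % of all reads (symbols are replicates 1, 2 and 3; bars are mean ± SD, n = 3). The sum is higher with DGAT1i in both states on either scale, the step from M0 to IFNγ + LPS turns with the scale, and the 6 mRNAs sit near 0.212% in M0 and 0.107% in IFNγ + LPS.

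The sum was mostly rRNA and mt-Co1. The rRNAs held 83% ± 0.454 of the reads of the 9 genes in M0, 84.4% ± 0.386 in IFNγ + LPS, 82.6% ± 0.505 in M0 + DGAT1i and 86.1% ± 1.17 in IFNγ + LPS + DGAT1i (85.4% ± 0.136, n = 2, without replicate 2). Another 11.8% to 13.7% on group means was mt-Co1, the lowest of them in IFNγ + LPS + DGAT1i (12.4% ± 0.0848, n = 2, without replicate 2). It alone held 73.8% ± 0.765 of the reads of the 7 mRNAs in M0, 83% ± 0.627 in IFNγ + LPS, 78.4% ± 0.391 in M0 + DGAT1i and 84.4% ± 0.668 in IFNγ + LPS + DGAT1i. The other 6 mRNAs together were 0.212% ± 0.0105 of all reads in M0 and 0.107% ± 0.0052 in IFNγ + LPS, and with DGAT1i 0.218% ± 0.0142 and 0.105% ± 0.00548. For these 6 mRNAs the groups with and without DGAT1i overlapped in both states, while resting and stimulated groups did not.

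Per kb of gene, the order of levels in M0 was mt-Rnr2 (17358 ± 457 TMM-scaled CPM per kb), mt-Rnr1 (6086 ± 128), mt-Co1 (3244 ± 87.6), mt-Cytb (649 ± 40.9), mt-Nd1 (632 ± 30.4), mt-Nd2 (152 ± 9.79), mt-Nd5 (85.7 ± 14.8), mt-Nd4 (72.9 ± 9.28) and mt-Nd6 (42 ± 6.7). In this order mt-Cytb and mt-Nd1 overlapped, as did mt-Nd5 and mt-Nd4, and all other neighbours were apart in their 3 libraries. In the other groups mt-Rnr2, mt-Rnr1 and mt-Co1 kept the first 3 places, and mt-Nd1 stood before mt-Cytb, overlapping it in IFNγ + LPS and in M0 + DGAT1i but not in IFNγ + LPS + DGAT1i. Counted per kb of unshared windows in place of gene length, mt-Co1 in M0 came to 6856 and mt-Rnr1 to 6415, so that their order turned, and mt-Nd4 came to 200.1 and passed mt-Nd2 (174). The rRNAs are transcribed together, and mt-Rnr2 had 2.85 ± 0.135 times the reads per kb of mt-Rnr1 in M0, 2.79 ± 0.129 in IFNγ + LPS, 2.66 ± 0.0627 in M0 + DGAT1i and 2.65 ± 0.127 in IFNγ + LPS + DGAT1i.

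**Figure D3:**
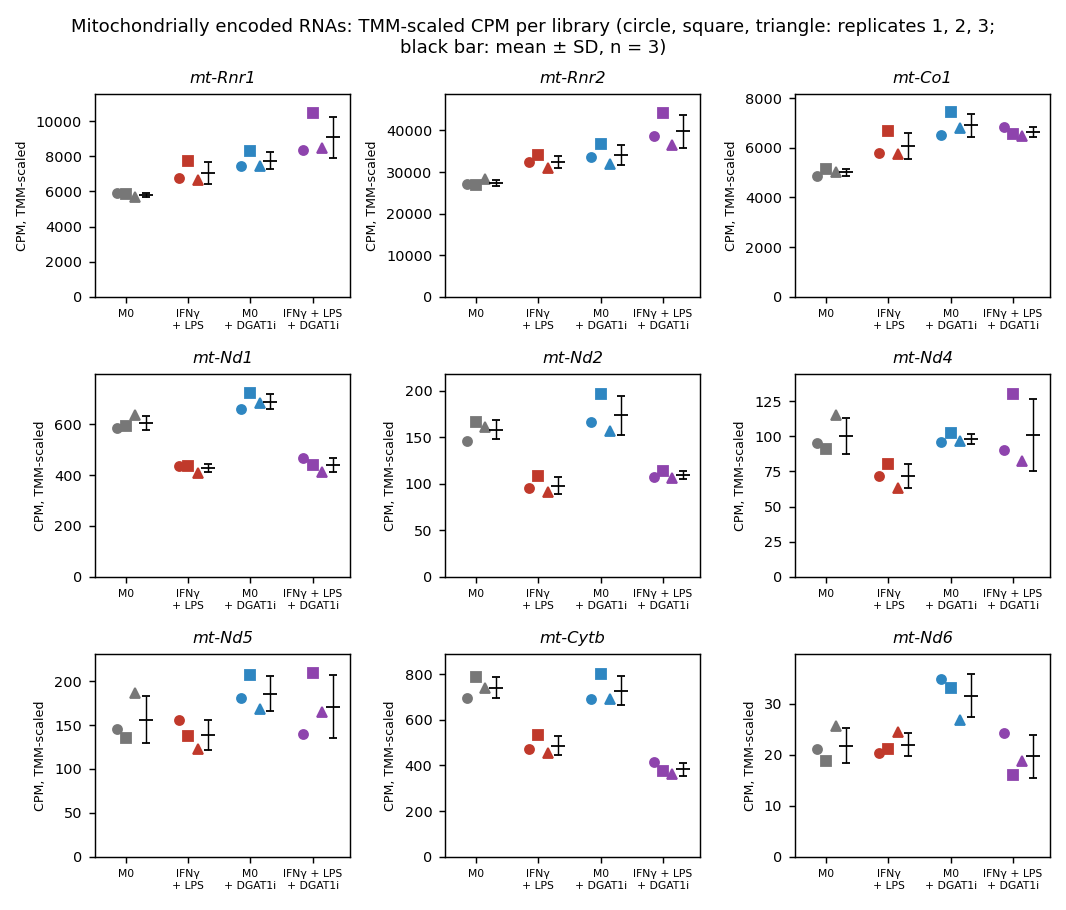
TMM-scaled CPM of each of the 9 RNAs in every library of the 4 groups (circle, square and triangle are replicates 1, 2 and 3; the black bar is the mean ± SD, n = 3; each y axis starts at 0). On this scale, but not in shares of all reads, the rRNAs and mt-Co1 are lowest in M0, while mt-Nd1, mt-Nd2 and mt-Cytb are lower in both stimulated groups, and mt-Nd6 is highest in M0 + DGAT1i.

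The effect of stimulation without inhibitor was asked first. Between IFNγ + LPS and M0, 7 of the 9 RNAs passed an adjusted p of 0.05 on the TMM scale (edgeR quasi-likelihood test, Benjamini-Hochberg over all genes), 3 higher and 4 lower, where 73.3% of all tested genes passed (37.1% higher, 36.2% lower). In CPM the groups did not overlap for 7 of the 9, against 75.3% of all genes, and in shares of all reads for 9 of 9, against 80.4%. The 4 that fell were mRNAs of complexes I and III, namely mt-Nd1, mt-Nd2, mt-Nd4 and mt-Cytb, and those that rose were mt-Rnr1, mt-Rnr2 and mt-Co1. The median log2 fold change of the 9 RNAs was −0.17, against 0.01 over all genes tested. The split rests on the scaling. With library size only, where the median of all genes was −0.46, all 9 RNAs were called lower, as were 59.5% of all tested genes, and 19.9% were called higher. With upper quartile factors, where the median was −0.20, the same 4 mRNAs were called lower and 0 higher, against 45.6% and 28.2% of all tested genes.

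Among the mRNAs, mt-Cytb, the cytochrome b subunit of complex III, had 696, 790 and 741 TMM-scaled CPM in M0 and 472, 535 and 456 in IFNγ + LPS. All stimulated libraries were below all resting ones, and the log2 fold change was −0.61 ± 0.07 (SE, adjusted p = 3.59e-09). As a share of all reads, its mean in IFNγ + LPS was 0.474 times that in M0. For mt-Nd2, a membrane subunit of complex I, the values were 147, 166 and 162 CPM in M0 and 95, 108 and 90.7 in IFNγ + LPS. Again the groups did not overlap, with a log2 fold change of −0.69 ± 0.07 (adjusted p = 3.58e-10). For mt-Nd1, another membrane subunit of complex I, the values were 584, 592 and 638 CPM in M0 and 437, 436 and 408 in IFNγ + LPS (log2 fold change −0.50 ± 0.05, adjusted p = 2.39e-12), also without overlap. These 3 mRNAs were called lower under each scaling and with each library left out.

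The complex I mRNAs further along the genome were less clear. For mt-Nd4 the values were 95, 91.3 and 115 CPM in M0 and 71.9, 80.3 and 63.6 in IFNγ + LPS, with a log2 fold change of −0.48 ± 0.17 (adjusted p = 0.0335). The groups did not overlap, but the call was lost in 5 of the 12 fits that left out a library, with adjusted p of 0.0509 without M0 replicate 1, 0.106 without M0 replicate 3, 0.0803 without IFNγ + LPS replicate 1, 0.116 without IFNγ + LPS replicate 3 and 0.0513 without M0 + DGAT1i replicate 3. For mt-Nd5, M0 replicate 3 stood at 187 CPM against 146 and 136 in replicates 1 and 2, and IFNγ + LPS gave 156, 137 and 123. These groups overlapped, and the log2 fold change of −0.17 ± 0.18 did not pass (adjusted p = 0.417). It ran from −0.26 to −0.02 when a library was left out. For mt-Nd6, the complex I subunit coded on the other strand, M0 had 21, 18.7 and 25.6 CPM and IFNγ + LPS 20.4, 21 and 24.5, with a log2 fold change of 0.02 ± 0.13 and an approximate 95% interval of −0.25 to 0.28 (adjusted p = 0.92). With library size only, mt-Nd5 and mt-Nd6 were both called lower, by −0.64 and −0.45.

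The RNAs that rose on the TMM scale were those with the most reads. For mt-Rnr2, the 16S rRNA, the values were 27140, 26954 and 28288 CPM in M0 and 32345, 33980 and 31039 in IFNγ + LPS, with a log2 fold change of 0.24 ± 0.06 (adjusted p = 0.000287). For mt-Rnr1, the 12S rRNA, M0 had 5909, 5852 and 5674 CPM and IFNγ + LPS 6733, 7741 and 6630 (log2 fold change 0.28 ± 0.07, adjusted p = 0.00211). For mt-Co1, the catalytic subunit of complex IV, M0 had 4872, 5143 and 5019 CPM and IFNγ + LPS 5811, 6661 and 5747 (log2 fold change 0.28 ± 0.06, adjusted p = 1.4e-05). On this scale the groups did not overlap for any of these 3 RNAs. As shares of all reads they did not overlap either, but in the opposite direction: mt-Rnr2 fell from 3.27% ± 0.086 to 2.79% ± 0.0885, mt-Rnr1 from 0.692% ± 0.0149 to 0.604% ± 0.0442 and mt-Co1 from 0.596% ± 0.0153 to 0.522% ± 0.0365. The fit by library size gave −0.23 for mt-Rnr2 (adjusted p = 0.00024), −0.19 for mt-Rnr1 (0.00961) and −0.19 for mt-Co1 (0.00106).

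Ratios of RNAs within a library do not depend on the scaling, and they shifted with stimulation. In M0, mt-Co1 had 7, 6.51 and 6.78 reads for each read of mt-Cytb, and in IFNγ + LPS 12.3, 12.45 and 12.6, where a library of one group never reached the other. The means were 6.76 ± 0.244 and 12.5 ± 0.145, a ratio of 1.84. For mt-Rnr2 the reads per read of mt-Cytb went from 37.1 ± 2.61 to 66.7 ± 2.78. Between mRNAs of the falling set the ratio moved less: mt-Nd1 had 0.817 ± 0.0589 reads per read of mt-Cytb in M0 and 0.879 ± 0.0572 in IFNγ + LPS, and the groups overlapped. The rRNAs had 4.92 ± 0.159 reads per read of the 6 heavy-strand mRNAs in M0 and 5.42 ± 0.158 in IFNγ + LPS, and with mt-Co1 left out of the mRNAs 18.9 ± 0.786 and 32.3 ± 0.664.

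**Figure D4:**
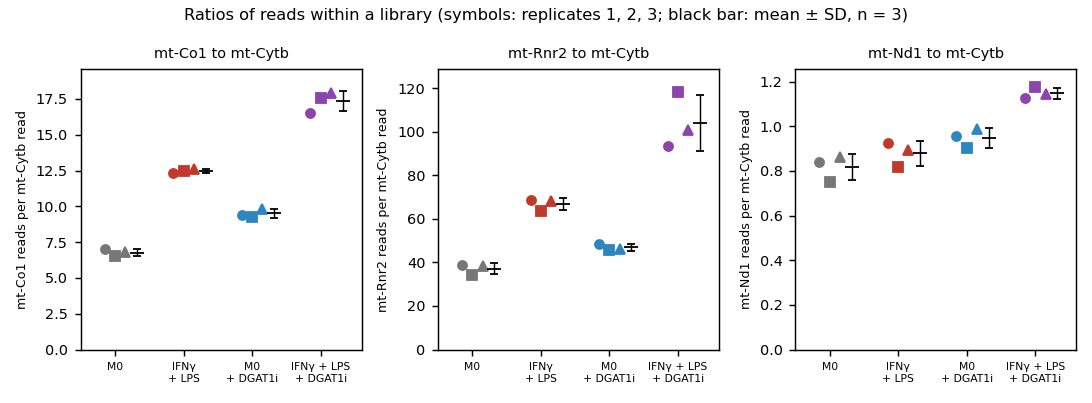
Reads of mt-Co1, mt-Rnr2 and mt-Nd1 per read of mt-Cytb in each library of the 4 groups (symbols are replicates 1, 2 and 3; bars are mean ± SD, n = 3; axes start at 0). For mt-Co1 the 4 groups lie apart, with means of 6.76 in M0, 9.5 in M0 + DGAT1i, 12.5 in IFNγ + LPS and 17.3 in IFNγ + LPS + DGAT1i.

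The effect of DGAT1 inhibition in resting macrophages was tested between M0 + DGAT1i and M0. Here 5 of the 9 RNAs rose and 0 fell, also at an unadjusted p of 0.05 and with DESeq2, where 24.4% of all tested genes passed (11% higher, 13.4% lower). The groups did not overlap for 5 of the 9 in CPM, against 37.8% of all genes, and for 4 in shares of all reads, against 38.4%. The 5 were mt-Rnr1, mt-Rnr2, mt-Nd1, mt-Co1 and mt-Nd6, and the median log2 fold change of the 9 was 0.25 against 0.00 over all genes. For mt-Co1, M0 + DGAT1i had 6514, 7423 and 6794 CPM, all above the M0 libraries, with a log2 fold change of 0.46 ± 0.06 (adjusted p = 1.14e-09). For mt-Rnr1 the values were 7468, 8296 and 7466 CPM (log2 fold change 0.41 ± 0.07, adjusted p = 0.000188) and for mt-Rnr2 33516, 36740 and 32001 (0.31 ± 0.06, adjusted p = 4e-05), both without overlap with M0. The rise of these 3 RNAs was called under every scaling and with every library left out, and it was also seen in their shares of all reads, which were 1.33, 1.28 and 1.19 times those of M0.

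The highest estimate of this comparison among the 9 RNAs was that of mt-Nd6, from low counts. M0 + DGAT1i had 263, 233 and 204 reads, which are 34.9, 33 and 26.9 CPM, against 145, 141 and 184 reads in M0. The groups did not overlap in CPM, although the lowest library with DGAT1i (26.9) was close to the highest without (25.6), and the log2 fold change was 0.54 ± 0.12 (adjusted p = 0.000583). For mt-Nd1 the rise was small, with 660, 722 and 685 CPM and a log2 fold change of 0.19 ± 0.05 (adjusted p = 0.00464), and the call was lost without M0 + DGAT1i replicate 2 (adjusted p = 0.0594) and with library size only (adjusted p = 0.0532). The other 4 mRNAs did not pass: mt-Nd2 gave 0.13 ± 0.07 (adjusted p = 0.162), mt-Nd5 0.25 ± 0.17, mt-Nd4 −0.03 ± 0.16 and mt-Cytb −0.03 ± 0.06. Without M0 + DGAT1i replicate 3, mt-Nd2 was called (0.20, adjusted p = 0.029), and over all fits that left out a library its change ran from 0.04 to 0.20. For mt-Cytb the approximate 95% interval of −0.15 to 0.10 was narrow, with 691, 802 and 692 CPM, which spanned the M0 libraries.

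In stimulated macrophages, IFNγ + LPS + DGAT1i was compared with IFNγ + LPS. Of the 9 RNAs 3 passed, 2 higher and 1 lower, where 29.8% of all tested genes passed (13.5% higher, 16.3% lower), with a median of 0.16 against −0.01. The groups did not overlap for 4 of the 9 in CPM, against 39.7% of all genes, and for 5 in shares, against 40%. The rRNAs rose, with 8354, 10429 and 8471 CPM for mt-Rnr1 (log2 fold change 0.37 ± 0.07, adjusted p = 0.000557) and 38695, 44202 and 36478 for mt-Rnr2 (0.29 ± 0.06, adjusted p = 9.08e-05). All 3 libraries were above those without inhibitor for both, and without the library of replicate 2 the changes were 0.25 ± 0.06 (adjusted p = 0.0016) and 0.21 ± 0.06 (adjusted p = 0.0107). The mRNA mt-Cytb fell, with 415, 374 and 362 CPM and a log2 fold change of −0.35 ± 0.07 (adjusted p = 0.000256), and −0.33 ± 0.08 without replicate 2 (adjusted p = 0.00212). These calls held under every scaling and with every library left out.

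For the remaining mRNAs the values of this comparison did not pass. With DGAT1i, mt-Co1 had 6858, 6573 and 6474 CPM, with a log2 fold change of 0.13 ± 0.06 (adjusted p = 0.0756), and it was called without IFNγ + LPS replicate 2 (0.19, adjusted p = 0.00875), as was mt-Nd2 (0.24, adjusted p = 0.0361 against 0.132 with all libraries). That fit therefore called 5 of the 9. A fit of only the libraries compared also called mt-Co1 (0.15, adjusted p = 0.024) and mt-Nd2 (0.18, adjusted p = 0.049). With a block for the replicate number mt-Co1 was called too (0.13, adjusted p = 0.0463). For mt-Nd4 the library of replicate 2 stood apart at 130 CPM against 90.6 and 82.5 in replicates 1 and 3, and the log2 fold change of 0.50 ± 0.18 (adjusted p = 0.0762) became 0.26 ± 0.10 without it (adjusted p = 0.0413). This RNA was also called without replicate 3 of the same group (0.61, adjusted p = 0.03) and with DESeq2 (0.49, adjusted p = 0.0385). With no filter on low values it was called at 0.46 (adjusted p = 0.0228). For mt-Nd5 the same library had 209.7 CPM against 139 and 165, with 0.31 ± 0.19 (adjusted p = 0.278) and, without it, 0.13 ± 0.18 (adjusted p = 0.696). For mt-Nd1 the change of 0.04 ± 0.05 had an approximate 95% interval of −0.06 to 0.15. With 118, 77 and 80 reads, mt-Nd6 gave −0.16 ± 0.15 (adjusted p = 0.458).

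Whether DGAT1i acted differently in the 2 states was tested as the difference between its responses, that in IFNγ + LPS minus that in M0. It passed for 3 of the 9 RNAs, where 18.5% of all tested genes passed (8.66% higher, 9.8% lower), and the difference was negative for all 3. For mt-Nd6 the difference was −0.70 ± 0.19 (adjusted p = 0.00697), from a response of 0.54 in M0 and −0.16 in IFNγ + LPS. For mt-Co1 it was −0.34 ± 0.08 (adjusted p = 0.00112), from 0.46 and 0.13, and for mt-Cytb −0.32 ± 0.09 (adjusted p = 0.0168), from −0.03 and −0.35. Without IFNγ + LPS + DGAT1i replicate 2 the differences were −0.57, −0.33 and −0.31 (adjusted p = 0.0314, 0.00344 and 0.0403). The difference for mt-Nd4 was 0.53 ± 0.24 (adjusted p = 0.185), and 0.30 without that library (adjusted p = 0.0935). It did not pass for mt-Nd1 (−0.15 ± 0.08, adjusted p = 0.182), mt-Nd2 (0.03 ± 0.10, adjusted p = 0.895) or mt-Nd5 (0.06 ± 0.26, adjusted p = 0.915) either. For the rRNAs the responses were close, with differences of −0.05 ± 0.10 for mt-Rnr1 and −0.02 ± 0.08 for mt-Rnr2 and approximate 95% intervals of −0.25 to 0.16 and −0.18 to 0.14, and without the library of replicate 2 they were −0.16 and −0.11.

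**Figure D5:**
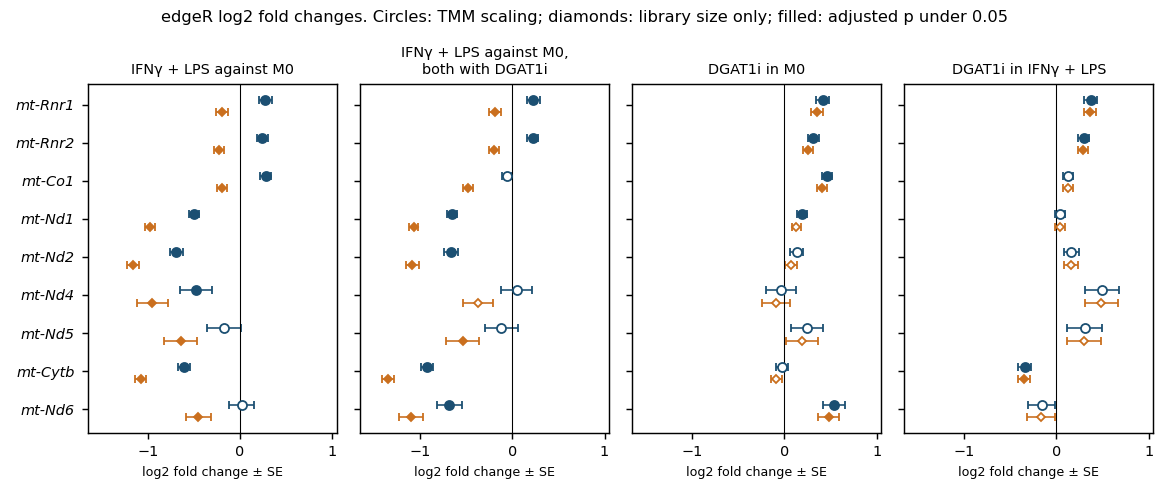
Log2 fold changes ± SE (x axis) of the 9 RNAs in 4 comparisons from edgeR, with TMM scaling (circles) and with library size only (diamonds); filled symbols have an adjusted p under 0.05. In the panels of stimulation the rRNAs are positive with TMM (0.22 to 0.28) and negative with library size (−0.23 to −0.19), while in the panels of DGAT1i both scalings give the same sign for every RNA. For DGAT1i in M0 the values are lower with library size, and mt-Nd1 (0.19 with TMM, 0.13 with library size) is called with TMM only.

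With DGAT1i present in both states, stimulation gave 6 calls among the 9 RNAs on the TMM scale, 2 higher and 4 lower, where 70.6% of all tested genes passed (35.3% higher, 35.3% lower). The groups did not overlap for 5 of the 9 in CPM, against 72.5% of all genes, and for 6 in shares, against 78.3%. The rRNAs rose on the TMM scale (mt-Rnr1 0.23 ± 0.07, adjusted p = 0.00841, and mt-Rnr2 0.22 ± 0.06, adjusted p = 0.000752), but as shares of all reads the groups overlapped, and for mt-Rnr2 in CPM too. With library size only the changes were −0.19 and −0.20, and without IFNγ + LPS + DGAT1i replicate 2 mt-Rnr1 was no longer called (0.12, adjusted p = 0.0888), nor without M0 + DGAT1i replicate 3 (adjusted p = 0.0512), whereas mt-Rnr2 was (0.14, adjusted p = 0.0438). With upper quartile factors neither was called (0.02, adjusted p = 0.841, and 0.01, adjusted p = 0.887), and with DESeq2 mt-Rnr1 was not (adjusted p = 0.0576). Those that fell were mt-Cytb (−0.92 ± 0.07, adjusted p = 8.27e-13), mt-Nd6 (−0.68 ± 0.13, adjusted p = 2.01e-05), mt-Nd2 (−0.66 ± 0.07, adjusted p = 8.76e-10) and mt-Nd1 (−0.65 ± 0.05, adjusted p = 3.7e-16). For these 4 mRNAs the groups did not overlap on either scale, and as a share of all reads they stood at 0.394, 0.465, 0.472 and 0.477 times the level of M0 + DGAT1i. For mt-Co1 the TMM scale gave −0.06 ± 0.06 (adjusted p = 0.348), but library size only gave −0.48 and upper quartile factors −0.27, both called. Neither mt-Nd4 (0.05 ± 0.17, adjusted p = 0.813) nor mt-Nd5 (−0.12 ± 0.18, adjusted p = 0.586) passed. Without IFNγ + LPS + DGAT1i replicate 2 they were at −0.18 and −0.29, and with library size only at −0.37 (adjusted p = 0.0633) and −0.54 (adjusted p = 0.0209).

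The inhibitor also moved ratios within a library. In M0 + DGAT1i, mt-Co1 had 9.42, 9.26 and 9.81 reads per read of mt-Cytb, all above M0 and all below IFNγ + LPS, and in IFNγ + LPS + DGAT1i 16.5, 17.6 and 17.9. Their means of 9.5 ± 0.285 and 17.3 ± 0.716 were 1.4 and 1.39 times those without inhibitor. For mt-Rnr2 per read of mt-Cytb the means were 46.8 ± 1.42 and 104 ± 12.8, the second being 97.1 ± 5.35 (n = 2) without replicate 2. The reads of mt-Nd1 per read of mt-Cytb were 0.948 ± 0.0444 and 1.15 ± 0.0248, in each state above all libraries without inhibitor. No test was run on these ratios.

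Over the 12 libraries the RNAs fell into sets by their log2 TMM-scaled CPM, given as Pearson's r across libraries that share their scaling and their group differences. The rRNAs varied together (mt-Rnr1 and mt-Rnr2, r = 0.976), and mt-Co1 with them (r = 0.836 and 0.806). A further set was mt-Nd1 with mt-Nd2 (r = 0.96) and mt-Cytb (r = 0.897), and mt-Nd4 went with mt-Nd5 (r = 0.77), both highest in IFNγ + LPS + DGAT1i replicate 2. The sets were not sharply apart, with r = 0.664 for mt-Nd1 and mt-Nd6 and r = 0.591 for mt-Nd2 and mt-Nd4. Across these sets, r was −0.648 for mt-Rnr2 and mt-Cytb and −0.0305 for mt-Nd1 and mt-Co1, which are transcribed in the same direction. Among 7361 nuclear genes, the 10 whose pattern was most like the mean of the 9 RNAs were Ctsb (r = 0.955), Sh3glb2, Xpc, Stxbp5, Csgalnact2, Ano6, Tpt1, Appl2, Gdpd1 and Eea1 (r = 0.926). Taken singly, mt-Rnr2 was most like Sec24a (r = 0.948) and mt-Cytb most like Npm1 (r = 0.989), a comparison added after the sets had been seen.

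The tRNAs and the other mRNAs of the mitochondrial genome had few reads. The 28 genes beside the 9 summed to 57 to 68 reads per library in M0, 21 to 36 in IFNγ + LPS, 70 to 75 in M0 + DGAT1i and 23 to 30 in IFNγ + LPS + DGAT1i. Of the 22 tRNAs, 6 had 0 reads, and only mt-Tw and mt-Tp passed the filter. Neither was called between IFNγ + LPS and M0 (log2 fold changes −0.79 ± 0.50 and −0.81 ± 0.49), although 1 or both were in 10 of the 12 fits that left out a library, and with DGAT1i in both states mt-Tw fell by 1.41 on the log2 scale (SE 0.48, adjusted p = 0.008). At these counts most differences between single tRNAs were not detectable.

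Nuclear genes that serve mitochondrial RNAs were counted from lists. Their counts are to be read against the share of all tested genes that passed. For stimulation this was 73.3% (37.1% higher, 36.2% lower). It was 29.8% for DGAT1i in IFNγ + LPS (13.5% and 16.3%), 24.4% for DGAT1i in M0 (11% and 13.4%) and 18.5% for the difference between its responses (8.66% and 9.8%). Of 9 genes of mitochondrial transcription, 7 were tested. Between IFNγ + LPS and M0, Tefm, the elongation factor of the mitochondrial polymerase, rose by 0.84 ± 0.19 (adjusted p = 7.03e-05), Mterf3 by 0.66 ± 0.12 and Tfb2m, needed to open the promoters, fell by 0.82 ± 0.21, with a median over the list of −0.09 against 0.01 for all genes. For DGAT1i the list had 0 calls in either state by edgeR and by DESeq2, with 1 higher and 1 lower in M0, and 0 in IFNγ + LPS, at an unadjusted p of 0.05. In M0 1 gene was called lower by edgeR in 4 of the 12 fits that left out a library (without M0 replicate 1, M0 + DGAT1i replicate 3, or IFNγ + LPS + DGAT1i replicate 1 or 2), and with library size only. Of 22 genes for RNA processing and turnover, 10 rose and 3 fell with stimulation (median 0.17). Among them were Slirp (1.46 ± 0.09, adjusted p = 2.56e-22) and Lrpprc (−0.47 ± 0.07, adjusted p = 1.02e-07), which form a complex that stabilises mitochondrial mRNAs, and Ptcd2 (1.39 ± 0.11), known for a role in mt-Cytb processing. The list also holds Ythdc2, which is not known as a mitochondrial RNA factor. It fell with stimulation (−0.31 ± 0.13, adjusted p = 0.029) and with DGAT1i in IFNγ + LPS (−0.44 ± 0.16, adjusted p = 0.030), and is part of both counts. With DGAT1i in IFNγ + LPS, 1 of the 22 rose (Slirp, 0.25 ± 0.08, adjusted p = 0.0103) and 5 fell. Among the latter were Lrpprc (−0.31 ± 0.08, adjusted p = 0.00377) and Tbrg4 (−0.50 ± 0.11, adjusted p = 0.000196). Those 6 calls became 3 without IFNγ + LPS replicate 1, without IFNγ + LPS replicate 2 or without IFNγ + LPS + DGAT1i replicate 3, and 2 with DESeq2. In M0 + DGAT1i, Trmt10c, a subunit of the enzyme that cuts the 5′ ends of mitochondrial tRNAs, rose by 0.50 ± 0.10 (adjusted p = 0.000138) and Rexo2 by 0.27 ± 0.09 (adjusted p = 0.017), with 0 falling (2 at an unadjusted p of 0.05, and 0 by DESeq2). Of these 2 calls 1 was left with DESeq2, without M0 replicate 1 or without M0 + DGAT1i replicate 2, and there were 4 without IFNγ + LPS + DGAT1i replicate 1. The difference between the DGAT1i responses passed for 5 of the 22, all with the lower response in IFNγ + LPS, including Lrpprc (−0.47 ± 0.11, adjusted p = 0.000813) and Trmt10c (−0.49 ± 0.16, adjusted p = 0.0205). The 5 became 3 without M0 replicate 1 or M0 + DGAT1i replicate 3, 2 without IFNγ + LPS + DGAT1i replicate 2, 2 with library size only and 1 with DESeq2.

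Of 22 genes for rRNA modification and assembly of the mitochondrial ribosome, 5 rose and 7 fell with stimulation (median −0.03), with Mrm1, an rRNA methyltransferase, at 0.65 ± 0.15 and Noa1 and Rbfa, assembly factors, at −0.94 ± 0.18 and −0.88 ± 0.11. The 12 calls became 6 without M0 replicate 2, 7 without IFNγ + LPS replicate 1 and 4 with DESeq2. With DGAT1i, 1 rose and 3 fell in IFNγ + LPS, among them Rpusd4, which modifies mt-Rnr2 (−0.40 ± 0.12, adjusted p = 0.0112). The 4 became 2 without IFNγ + LPS replicate 3, or without IFNγ + LPS + DGAT1i replicate 1 or 2, and 1 with DESeq2. In M0 DGAT1i gave 0 calls on this list by edgeR and DESeq2, with 1 higher and 1 lower at an unadjusted p of 0.05, and 1 lower by edgeR without M0 + DGAT1i replicate 3. Of 20 tested genes for mtDNA replication and nucleotide supply, 6 rose and 7 fell with stimulation, and Cmpk2, a mitochondrial nucleotide kinase, gave 7.50 ± 0.17 (adjusted p = 1.06e-11) and Samhd1, which degrades nucleotides, 4.58 ± 0.06. DGAT1i gave 1 call higher and 2 lower in each state, among them Polg, the mtDNA polymerase, at −0.27 ± 0.07 in M0 (adjusted p = 0.00222) and Cmpk2 at −0.35 ± 0.11 in IFNγ + LPS (adjusted p = 0.0369), and with DESeq2 the 3 calls of each state became 1. Of 9 tested regulators of mitochondrial biogenesis, 7 rose and 1 fell with stimulation (median 0.33), led by the coactivator Ppargc1b (2.86 ± 0.17, adjusted p = 5.75e-22) and its partner Esrra (1.49 ± 0.08), and the 8 calls became 5 without IFNγ + LPS replicate 2. With DGAT1i in IFNγ + LPS 0 rose and 5 fell, among them Ppargc1b (−0.72 ± 0.14, adjusted p = 5.2e-05) and Nrf1 (−0.42 ± 0.11, adjusted p = 0.0036). In M0 Sirt1 and Nrf1 fell (−0.32 ± 0.11 and −0.28 ± 0.10). Of these, 1 call was left without M0 replicate 3, without M0 + DGAT1i replicate 1 or without the filter on low counts, and 0 with DESeq2.

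The nuclear partners of the mitochondrially encoded subunits were counted on the same scale. Of 21 nuclear-encoded subunits listed for complexes I, III and IV, 14 rose and 2 fell with stimulation on the TMM scale (median 0.42), where 37.1% of all tested genes were higher and 36.2% lower. Cox5a of complex IV gave 1.06 ± 0.07 (adjusted p = 1.12e-20), Ndufs3 of complex I 0.80 ± 0.09, Cyc1 of complex III 0.78 ± 0.08 and Ndufs8 of complex I −0.38 ± 0.12. Complex II has no mitochondrially encoded subunit, and of its 4 genes Sdhb (0.93 ± 0.07), Sdhd (0.91 ± 0.06) and Sdha (0.16 ± 0.05) rose, while Sdhc (0.01 ± 0.07) was not called. With DGAT1i in IFNγ + LPS 7 of the 21 fell and 0 rose, where 16.3% and 13.5% of all tested genes did, including Ndufs8 (−0.61 ± 0.14), Cyc1 (−0.40 ± 0.08, adjusted p = 0.000139) and Cox7c (−0.39 ± 0.10). Sdha, Sdhb and Sdhd also fell (−0.34 ± 0.05, −0.31 ± 0.07 and −0.25 ± 0.06) with Sdhc at −0.12 ± 0.07. In M0 + DGAT1i, 1 of the 21 fell, where 13.4% of all tested genes did, namely Ndufs8 (−0.61 ± 0.11, adjusted p = 1.75e-05), and without M0 + DGAT1i replicate 1 there were 2. Of complex II, Sdha fell there (−0.15 ± 0.05, adjusted p = 0.0268), a call lost without the filter on low counts, without M0 replicate 1 or 2 and without M0 + DGAT1i replicate 1 or 3. As for the mitochondrial RNAs, the calls for stimulation turn with the scaling. With library size only, 19.9% of all tested genes were called higher and 59.5% lower, and the 21 subunits gave 5 higher and 8 lower, complex II 2 and 2, RNA processing 6 and 12, biogenesis 2 and 4, mtDNA replication 5 and 13, transcription 0 and 4, and rRNA modification 0 and 14.

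With DGAT1i in both states, where 35.3% of all tested genes were higher and 35.3% lower, stimulation gave, on the TMM scale, 13 higher and 2 lower of the 21 subunits, 2 and 0 of complex II, 3 and 1 in transcription (1 and 1 without IFNγ + LPS + DGAT1i replicate 1 and with DESeq2), 6 and 6 in RNA processing, 3 and 8 in rRNA modification, 3 and 5 in mtDNA replication and 5 and 2 in biogenesis. With library size only, where 19.9% of all tested genes were called higher and 57.8% lower, these were 4 and 11, 2 and 2, 0 and 4, 4 and 15, 0 and 15, 3 and 15, and 3 and 3. On the TMM scale Lrpprc fell there by 0.94 (SE 0.08, adjusted p = 2.08e-16) and Slirp rose by 1.65 ± 0.08 (adjusted p = 5.25e-25).

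A list of 11 RNAs of nuclear genes, most of which stay in the nucleus or lack a poly(A) tail, was followed beside the mitochondrial rRNAs. It also holds Lars2, the mRNA of a mitochondrial tRNA synthetase, whose adjusted p was between 0.343 and 0.935 in the 5 comparisons. Malat1, a nuclear-retained RNA, rose with DGAT1i by 0.58 ± 0.05 in M0 (adjusted p = 1.56e-13) and by 0.26 ± 0.05 in IFNγ + LPS (adjusted p = 9e-05), and Neat1, another, by 0.51 ± 0.06 and 0.53 ± 0.06. From M0 to M0 + DGAT1i the share of all reads went from 0.480% to 0.372% for Rpph1, from 0.876% to 0.787% for Rn7sk and from 0.154% to 0.115% for Rmrp. Gm26917, Rn7s1 and Rn7s2 were lower there too, and Kcnq1ot1, Gm42418 and Lars2 higher. None of these RNAs was called there on the TMM scale. In IFNγ + LPS the shares of Rpph1, Rn7sk and Rmrp were higher with DGAT1i (0.380%, 0.763% and 0.129% against 0.345%, 0.729% and 0.116%), also not called. In IFNγ + LPS Gm42418 also rose (1.13 ± 0.27, adjusted p = 0.0135). Without the library of IFNγ + LPS + DGAT1i replicate 2 its change was 0.81 ± 0.22 (adjusted p = 0.0358). It was not called without IFNγ + LPS replicate 3 (adjusted p = 0.0524) or in a fit of only the libraries compared (adjusted p = 0.0769). Of the 11 genes of this list, 2 were higher and 0 lower in M0 + DGAT1i (2 and 2 without M0 + DGAT1i replicate 1), and 3 and 0 in IFNγ + LPS + DGAT1i, where 11% and 13.5% of all tested genes were higher, beside the higher mt-Rnr1 and mt-Rnr2 of both groups. With stimulation alone 3 were higher, among them Neat1 (0.90 ± 0.06) and Malat1 (0.69 ± 0.05), and 1 lower, where 37.1% of all tested genes were higher and 36.2% lower. By library size alone these were 2 and 4, against 19.9% and 59.5% of all tested genes. With DGAT1i in both states stimulation gave 8 higher and 1 lower of the 11 on the TMM scale (median 0.45), where 35.3% of all tested genes were higher and 35.3% lower. Among them were Neat1 (0.93 ± 0.06, adjusted p = 8e-20), Gm26917 (0.86 ± 0.23, adjusted p = 0.00801) and Kcnq1ot1 (−1.03 ± 0.15, adjusted p = 3.07e-07). Without IFNγ + LPS + DGAT1i replicate 2 the change of Gm26917 was 0.55 ± 0.14 (adjusted p = 0.008), and it was not called with library size only (adjusted p = 0.105) or in a fit of only the libraries compared (adjusted p = 0.0523). These 9 calls became 2, 1 higher and 1 lower, with library size only, and there were 8 to 9 when a library was left out. Relative to Malat1, mt-Rnr2 had 213 ± 4.72 reads per 100 in M0, 157 ± 11.2 in IFNγ + LPS, 176 ± 5.19 in M0 + DGAT1i and 160 ± 15.3 in IFNγ + LPS + DGAT1i (152 ± 10.9, n = 2, without replicate 2), so that against this RNA it stood lower with DGAT1i in M0. The part of RNA quality or of the priming of non-polyadenylated RNA in these values was not tested.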

How the data were processed

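The authors deposited raw read counts per gene, without normalization, for 12 libraries. They were made with the pipeline of the authors' bioinformatics core. The submitters' processing notes name GRCm38 and DESeq2. Aligner, counter and annotation release: not given in the sources used here. Of 47937 identifiers, 47310 matched GENCODE release M21 (GRCm38) without version and 627 did not.

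From these counts, edgeR 4.0.16 (R 4.3.3) kept 11760 genes by filterByExpr and scaled libraries by TMM. Its quasi-likelihood model (glmQLFit, robust) had 4 group means over the 12 libraries. Adjusted p is Benjamini-Hochberg over all genes tested, with a threshold of 0.05. At this depth 1 TMM-scaled CPM is worth 4.29 to 7.59 reads. The common BCV, the spread between replicates beyond counting, was 0.0507. Libraries of a group differed by more than counting noise (chi-square per gene of 1.89 to 3.94). Sums and ratios were described without a test. Intervals are normal approximations from the SE.

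Sequences were read from GENCODE M21 transcripts. Copies were searched in annotated transcripts with BLAST 2.17.0 (identity of at least 90% over 100 bases), and windows of 50 bases compared between them. No genome sequence was used, so unannotated copies were not searched. Figures were drawn with matplotlib 3.10.9.

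All 9 RNAs are named in every comparison. From each list, genes were named by at most 3 increases and 3 decreases per comparison among calls whose average log2 CPM was 2 or more, and the text gives a part of them, plus lists of 4 or fewer in full. Pattern likeness used nuclear genes whose average log2 CPM was 4 or more. The members and the gene lists were chosen with earlier results of these data known. The edgeR fits were also run on simulated data, in which 200 genes were changed in a single group. All other genes had the same expected level in every group, so those runs cannot judge the choice of scaling. Alternatives were other scalings, scaling without mitochondrial genes, other filters, DESeq2 1.42.0, fits of only the libraries compared, a block for the replicate number, and leaving out each library. The study's other measurements were not used here.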

Additional observations from a re-analysis of the deposited data

Results flagged for a closer look

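A difference between the responses to DGAT1i in the 2 states, by the interaction term of the edgeR fit (quasi-likelihood test, Benjamini-Hochberg over all genes), was found for 3 of the 9 RNAs, where 18.5% of all tested genes passed (8.66% higher, 9.8% lower). The response in IFNγ + LPS minus that in M0 was −0.34 (log2) for mt-Co1, −0.70 for mt-Nd6 and −0.32 for mt-Cytb, with adjusted p of 0.00112, 0.00697 and 0.0168. In M0 the responses of mt-Co1 and mt-Nd6 were 0.46 and 0.54, both called, and in IFNγ + LPS 0.13 and −0.16, neither called in this fit. With the replicate block (adjusted p = 0.0463) and in a fit of only the libraries compared (adjusted p = 0.024) mt-Co1 was called in IFNγ + LPS. For mt-Cytb the response was −0.03 in M0, not called, and −0.35 in IFNγ + LPS, called. No test of single outlying libraries was run.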

How the results depend on the processing

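Other scalings turned directions in the comparisons of stimulation, and for DGAT1i in M0 mt-Nd1 was not called with library size only (0.13, adjusted p = 0.0532). With library size only, the log2 fold changes of mt-Rnr1 (−0.19), mt-Rnr2 (−0.23), mt-Co1 (−0.19) and mt-Nd6 (−0.45) between IFNγ + LPS and M0 turned negative, and with DGAT1i in both states those of mt-Rnr1 (−0.19), mt-Rnr2 (−0.20) and mt-Nd4 (−0.37, not called) did, while mt-Nd5 was called there (−0.54). In these fits the median of all genes was −0.46 and −0.43, so that they shift all genes. With upper quartile factors 4 RNAs in place of 7 were called between IFNγ + LPS and M0. For DGAT1i in IFNγ + LPS, fits of only the libraries compared called 5 in place of 3, and the cause was not tested. In DGAT1i in M0 the count was 5 and in the difference of responses 3; in both it stayed within 1.5 times under every alternative run. Leaving out 1 library gave 6 to 7 calls for stimulation, 3 to 5 for DGAT1i in IFNγ + LPS (5 without IFNγ + LPS replicate 2), 4 to 6 for DGAT1i in M0, 3 for the difference and 5 to 6 for stimulation with DGAT1i.

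The sum of the 9 RNAs depends on its denominator. Per 100 reads on nuclear genes it was 5.01 for M0 and 4.19 for IFNγ + LPS, and with the inhibitor 6.15 and 5.1. Per 100 reads on protein-coding genes it was 5.27, 4.4, 6.47 and, in IFNγ + LPS with DGAT1i, 5.41, and of the TMM effective library size 4.01%, 4.68%, 5.06% and 5.67%. Without the rRNAs in the sum, mt-Co1 was 73.8%, 83%, 78.4% and 84.4% of it in the same order, in place of 12.5%, 13%, 13.7% and 11.8%.

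Deviations of same-numbered libraries of different groups had an r of −0.0217 to 0.0687 over 18 pairs. For libraries with different numbers it was −0.058 to 0.0381 over 36 pairs. Whether the numbers stand for a shared animal or day cannot be told from these values. With the replicate block, the calls among the 9 RNAs stayed at 7 for stimulation, and for DGAT1i in IFNγ + LPS mt-Co1 was also called (0.13, adjusted p = 0.0463, where the adjusted p over all its alternatives ran from 0.00875 to 0.338). Depth limits mt-Nd6, with 77 to 263 reads per library, and the tRNAs.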
